A study of Schizosaccharomyces pombe with 8 samples.

Results

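hri2, cki3 and ppk15 are protein kinase genes of fission yeast, Schizosaccharomyces pombe, and their annotated introns are described here library by library. They were taken as every annotated intron of the deposited table that lies in 1 of the 3 genes by the reference annotation, which gave 7 introns of 5144 (3 in hri2, 3 in cki3 and 1 in ppk15). The genes were chosen by measured values, the unspliced shares of these same libraries in mutants against wild type, above all the shares of hri2 intron 2 and of cki3 introns 1 and 3. The differences in unspliced share between mutants and wild type are therefore given as a description, with no p-value, and nothing is read from the calls of the class fit on these introns. Total reads per gene did not enter the choice and were tested.

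Poly(A) RNA was sequenced from 6 strains with temperature-sensitive alleles of splicing factors and from wild type (WT), strain ED666. The mutant strains were ts102B12 (prp10-R379H, an SF3b protein of the U2 snRNP), ts105M13 (sap114-A152V, an SF3a protein of the U2 snRNP), ts106A18 (prp1-G705D, a tri-snRNP protein), ts104O20 (cwf22-G191D, a spliceosome component), ts103A10 (prp22-V801M;G917R, an RNA helicase needed for release of the finished mRNA) and ts106C01 (ntr1-W597R, a spliceosome disassembly factor). RNA of all 8 libraries, WT included, came from cells grown at 25 °C in YPD and moved to 37 °C for 15 minutes before harvest, so the WT libraries also come from heat-shifted cells. Each mutant strain had 1 library and WT had 2, and each mutant is named below by its gene.

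Hri2 is 1 of the kinases that phosphorylate the alpha subunit of translation initiation factor eIF2, which lowers general translation under stress. Cki3 belongs to the casein kinase 1 family, conserved serine/threonine kinases with roles that include membrane traffic and nutrient signalling in yeasts. Ppk15 belongs to the DYRK family, and its budding yeast relative Yak1 acts in the response to glucose and stress. An intron is removed in 2 steps, after the 5′ splice site is paired with U1 and then U6 snRNA and the branch adenosine, a short distance before the 3′ splice site, is bulged out by U2 snRNA. An mRNA that keeps an intron usually meets a stop codon early.

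The 7 introns are printed first because the shares below belong to these exact sequences. They lie between coding exons on chromosome I. Coordinates follow the table (build ASM294v2, 1-based), and the sequences were read from the introns of the same genes in RefSeq's ASM294v3, whose ends have the same positions. Capitals mark the first 6 bases, the last AG and, where there was one, the last match to the pentamer CTNAN (where the first N is A or G and the last is C or T), taken here as a possible branch site and searched on the transcribed strand outside the first 6 and last 3 bases.
hri2 intron 1: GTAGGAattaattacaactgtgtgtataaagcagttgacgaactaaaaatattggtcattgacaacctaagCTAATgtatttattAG
hri2 intron 2: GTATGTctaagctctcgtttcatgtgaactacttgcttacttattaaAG
hri2 intron 3: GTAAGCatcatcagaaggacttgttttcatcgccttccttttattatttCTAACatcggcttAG
cki3 intron 1: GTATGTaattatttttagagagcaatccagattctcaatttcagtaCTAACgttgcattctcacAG
cki3 intron 2: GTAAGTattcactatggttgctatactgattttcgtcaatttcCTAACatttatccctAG
cki3 intron 3: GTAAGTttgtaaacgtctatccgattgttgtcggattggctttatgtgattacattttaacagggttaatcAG
ppk15 intron 1: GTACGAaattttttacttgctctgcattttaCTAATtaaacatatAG

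The hri2 gene (SPAC222.07C, I 954279 to 956610, minus strand) holds intron 1 at chrI:956273-956359 (87 nt), intron 2 at chrI:956185-956233 (49 nt) and intron 3 at chrI:955586-955649 (64 nt). The cki3 gene (SPAC1805.05, I 2781152 to 2783133, plus strand) holds intron 1 at chrI:2781551-2781616 (66 nt), intron 2 at chrI:2781687-2781746 (60 nt) and intron 3 at chrI:2781896-2781968 (73 nt). The single intron of ppk15 (SPAC823.03, I 2585173 to 2587474, plus strand) lies at chrI:2585944-2585990 (47 nt). The median length of 5077 introns matched to the reference was 56 nt.

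No single 5′ splice site was common to the 7 introns. Among the 5077 introns GTAAGT began 27.8% and GTATGT 20.03%, and these forms began cki3 introns 2 and 3 and, respectively, hri2 intron 2 and cki3 intron 1. The other 3 first hexamers are rarer, at 4.23% for GTAAGC (hri2 intron 3), 1.24% for GTACGA (ppk15) and 0.355% for GTAGGA (hri2 intron 1). A match to this pentamer was found in 76.7% of all introns and in 5 of these 7, with the adenosine 11 to 16 nt from the intron's last base, against a median of 11 nt in all introns that had a match. hri2 intron 2 and cki3 intron 3 held no match to it. hri2 intron 2 ends in AAG, as do 12.2% of introns, and cki3 introns 1 and 3 in CAG (18.9%), while the other 4 end in TAG (68.7%).

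Each of the 7 introns, kept alone in an otherwise spliced mRNA, would bring an in-frame stop codon within the intron. The stop would be codon 42, 67 and 231 for hri2 introns 1, 2 and 3, in a reading frame for 639 residues. It would be codon 51, 78 and 122 for cki3 introns 1, 2 and 3, in a frame for 439 residues, and codon 76 for ppk15, in a frame for 534 residues. At most 36.0% of the protein (hri2 intron 3) would precede the stop. This property is common, since 86.1% of 4932 coding introns have it.

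For each intron the table gives reads spliced across it and reads counted as unspliced, and the unspliced share is the unspliced reads over both. Spliced plus unspliced reads at annotated introns ranged from 420473 in WT replicate 1 to 1858792 in ntr1. The 2514 introns that reached 20 reads in each of the 8 libraries were fitted together. Their median unspliced share was 4.67% and 5.60% in the WT libraries and ran from 37.5% in prp1 to 81.1% in ntr1 among the mutants. Of the 7 introns 6 reached 20 reads in every library, with the smallest depth, 49 reads, at cki3 intron 2 in WT replicate 1. The intervals given for single libraries are 95% Wilson intervals, which take in counting error alone.

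In hri2, intron 2 was mostly spliced in WT and mostly unspliced in all 6 mutants. WT replicate 1 had 3 unspliced and 71 spliced reads (4.05%, interval 1.39 to 11.3), and WT replicate 2 had 11 and 135 (7.53%, interval 4.26 to 12.99). In prp1 154 reads were unspliced and 78 spliced (66.4%, interval 60.1 to 72.1). The share was 82.8% in prp22 (135 and 28 reads) and 91.9% in prp10 (102 and 9 reads). The prp1 library was thus the lowest mutant, below prp22 with no overlap of their intervals, and far above both WT libraries. In ntr1, 184 reads were unspliced and 5 spliced (97.4%), in cwf22 135 and 3 (97.8%) and in sap114 181 and 2 (98.9%, interval 96.1 to 99.7). Only single-digit spliced reads remained in these 3 libraries, and their intervals overlap, so their order is not set. The WT mean was 5.79% ± 2.46 (SD, n = 2) and the mutant mean 89.2% ± 12.7 (SD, n = 6), a difference of 83.4 percentage points, which was number 16 from the top among the 2514 introns. Every mutant library was above both WT libraries here, at the other 6 introns of the 3 genes (for hri2 intron 1, in the 5 mutants with reads) and at 98.6% of the 2514 tested introns, so this separation is common to nearly all introns.

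hri2 intron 3 differed from its neighbour in WT. More than 1 in 2 of its reads were already unspliced there, 52 of 87 in WT replicate 1 (59.8%, interval 49.3 to 69.4) and 104 of 187 in WT replicate 2 (55.6%, interval 48.5 to 62.6). The 2 WT libraries overlap in their intervals. In the mutants it ran from 89.0% in prp1 (210 unspliced and 26 spliced reads) through 93.1% in prp22, 95.8% in prp10, 96.8% in cwf22 and 98.4% in sap114 to 98.8% in ntr1 (239 and 3). From prp1 to ntr1 every pair of neighbours in this order overlaps. The mean difference was 37.6 percentage points (57.7% ± 2.94 in WT, 95.3% ± 3.71 in the mutants). Intron 2 minus intron 3 was −55.7 and −48.1 points in WT replicates 1 and 2, and −6.11 ± 9.06 points (SD, n = 6) over the mutants. The intron stood above the 96th percentile of tested introns in each of the 8 libraries (96.4 to 98.2).

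hri2 intron 1 could be read in 7 of the 8 libraries. It was at 14.8% in WT replicate 1 (9 of 61 reads) and 19.8% in WT replicate 2 (21 of 106), then 53.8% in prp1 (86 of 160), 86.9% in prp22 (185 of 213), 94.1% in cwf22 (190 of 202), 94.9% in prp10 (112 of 118) and 98.0% in ntr1 (298 of 304). The interval of prp1 lay apart from those of the other 4 mutants. In sap114 the table lists 0 spliced and 0 unspliced reads for this intron, although introns 2 and 3 of the same gene have 183 and 188 reads there. Over all annotated introns and libraries, 3029 entries had 0 spliced reads, and 6.07% of them had any unspliced read. Of the 2105 entries with 1 spliced read 85.2% had one. The 0 in sap114 was therefore left out as a missing value, which leaves 5 mutants (85.5% ± 18.2, SD, n = 5), and the intron has no place in the fit. The same pattern, at least 20 reads in 7 libraries and 0 in the eighth, was met at 44 introns of the table, 22 of them through sap114. All ranks and percentiles among the 2514 introns leave out introns with such a 0. These can include introns with no spliced read in a mutant, so strongly retained introns may be missing from the ranking.

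In cki3, all 3 introns were below 10% unspliced in WT, and intron 2 showed the largest difference of all 7 introns. It had 2 unspliced and 47 spliced reads in WT replicate 1 (4.08%, interval 1.13 to 13.7) and 9 and 84 in WT replicate 2 (9.68%, interval 5.18 to 17.4). The share was 78.3% in prp1 (126 and 35 reads), 88.2% in prp22 (142 and 19) and 94.6% in prp10 (159 and 9). In ntr1 it was 96.2% (230 and 9), in cwf22 96.7% (206 and 7) and in sap114 99.1% (231 and 2, interval 96.9 to 99.8). The intervals of neighbouring mutants overlap all along this order. The mean went from 6.88% ± 3.96 (SD, n = 2) to 92.2% ± 7.76 (SD, n = 6), a difference of 85.3 points, number 6 from the top of the 2514.

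cki3 intron 1 had a low share in WT (percentile 13.2 of the tested introns by the WT mean), with 1 unspliced read in each library, of 57 (1.75%, interval 0.310 to 9.29) and of 91 (1.10%, interval 0.194 to 5.96). In prp1 65 reads were unspliced and 63 spliced (50.8%, interval 42.2 to 59.3). The share was 77.5% in prp10 (110 and 32), 84.8% in prp22 (117 and 21) and 91.8% in cwf22 (145 and 13). Here prp10, not prp22, was the mutant next to prp1, and its interval (69.9 to 83.6) overlaps that of prp22. The share was 94.1% in sap114 (160 and 10) and 94.8% in ntr1 (201 and 11), 2 values that overlap in their intervals. The mean was 1.43% ± 0.463 in WT and 82.3% ± 16.8 in the mutants.

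cki3 intron 3 had 1 unspliced read of 51 in WT replicate 1 (1.96%) and 3 of 77 in WT replicate 2 (3.90%). It reached 57.5% in prp1 (92 unspliced and 68 spliced reads), 78.2% in prp22 (122 and 34) and 86.0% in cwf22 (148 and 24). In prp10 it was at 93.0% (160 and 12), in ntr1 at 95.3% (202 and 10) and in sap114 at 96.9% (189 and 6). prp1 was below the other mutants with no overlap of intervals. Intron 1 minus intron 3 was −15.6 points in prp10, where the intervals of the 2 introns lay apart. It was 6.58 and 5.73 points in prp22 and cwf22, where the intervals overlap, so a reversal between strains is not set. Intron 2 was above intron 1 and above intron 3 in 6 of 6 mutants, by a mean of 7.70 ± 7.71 points (SD, n = 6) over intron 3. Intron 2 exceeded both also in the 2 WT libraries, but with overlapping intervals there. Among the mutants its interval lay apart from that of intron 3 only in prp1 and cwf22. Apart from that of intron 1 it lay only in prp1, prp10 and sap114.

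The ppk15 intron had the deepest coverage of the 7. WT replicate 1 had 11 unspliced and 92 spliced reads (10.7%, interval 6.07 to 18.1) and WT replicate 2 had 22 and 169 (11.5%, interval 7.73 to 16.8). In prp1 299 reads were unspliced and 80 spliced (78.9%, interval 74.5 to 82.7), in prp22 307 and 43 (87.7%), in cwf22 194 and 16 (92.4%) and in prp10 196 and 8 (96.1%). The libraries of sap114 (366 and 4) and ntr1 (367 and 4) both stood at 98.9%. The WT pair differed by less than its counting error, and prp1 was the lowest mutant with no overlap with prp22. The WT mean was 11.1% ± 0.593 (SD, n = 2) and the mutant mean 92.2% ± 7.78 (SD, n = 6).

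**Figure D1:**
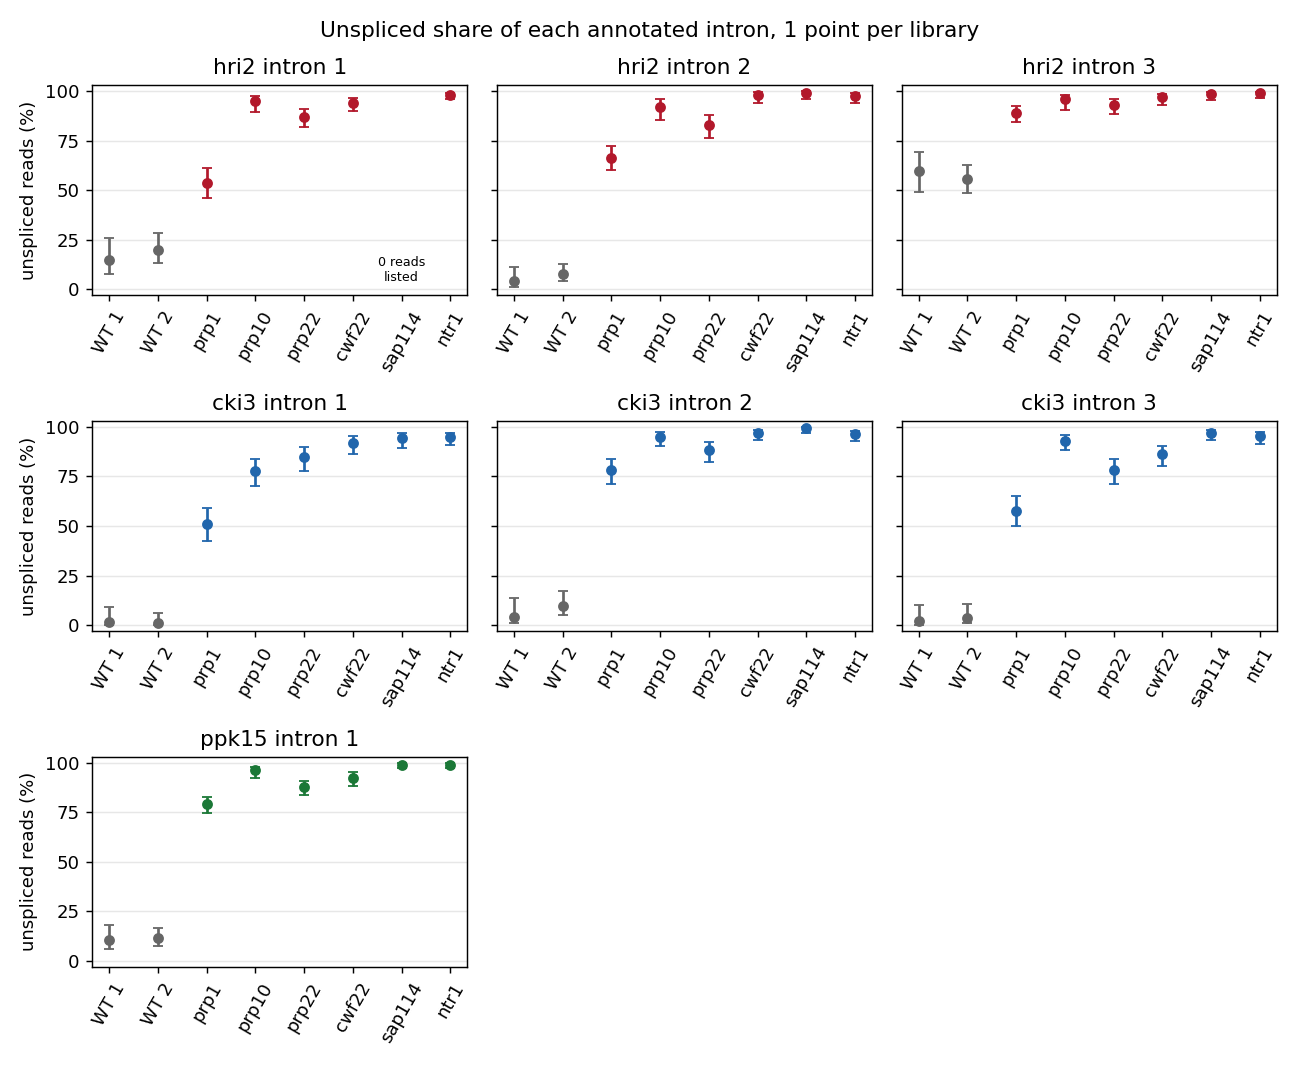
Unspliced reads as a percentage of spliced plus unspliced reads at each of the 7 introns, with 1 point per library and Wilson 95% intervals as bars (WT in grey). WT points lie below 20% except at hri2 intron 3, where they are at 59.8% and 55.6%, and prp1 is the lowest mutant in every panel.

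The order of the strains was similar at the 7 introns. prp1 was the lowest mutant at 7 of 7, as at 90.8% of all tested introns. The highest was ntr1 at 4 and sap114 at 3. The 4 of ntr1 include hri2 intron 1, where sap114 has no value. At each of the 7 introns the interval of the highest mutant overlaps that of the mutant next below it. Which mutant was highest is therefore not set. prp10 had a higher share than prp22 at 6 of the 7 introns, all but cki3 intron 1. The Wilson intervals of prp10 and prp22 lay apart only at cki3 intron 3 and at the ppk15 intron. Over all tested introns prp10 was above prp22 at 39.4%. These 7 introns lie in 3 genes and share their libraries, so they are not independent counts.

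Against the other introns of the same library, hri2 intron 2 moved from the 44.7 and 59.5 percentiles in WT to between 81.8 (prp22) and 98.6 (cwf22) in the mutants. cki3 intron 1 was at the 25.2 and 9.94 percentiles in WT and between 68.7 (prp1) and 89.8 (cwf22) in the mutants. cki3 intron 3 lay between 72.1 (prp22) and 93.7 (prp10), from 27.0 and 37.7 in WT. The ppk15 intron was at 72.9 and 74.0 in WT and between 90.2 (prp22) and 98.4 (ntr1) in the mutants. At low depth WT percentiles rest on few unspliced reads, 1 in the case of cki3 intron 1.

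**Figure D2:**
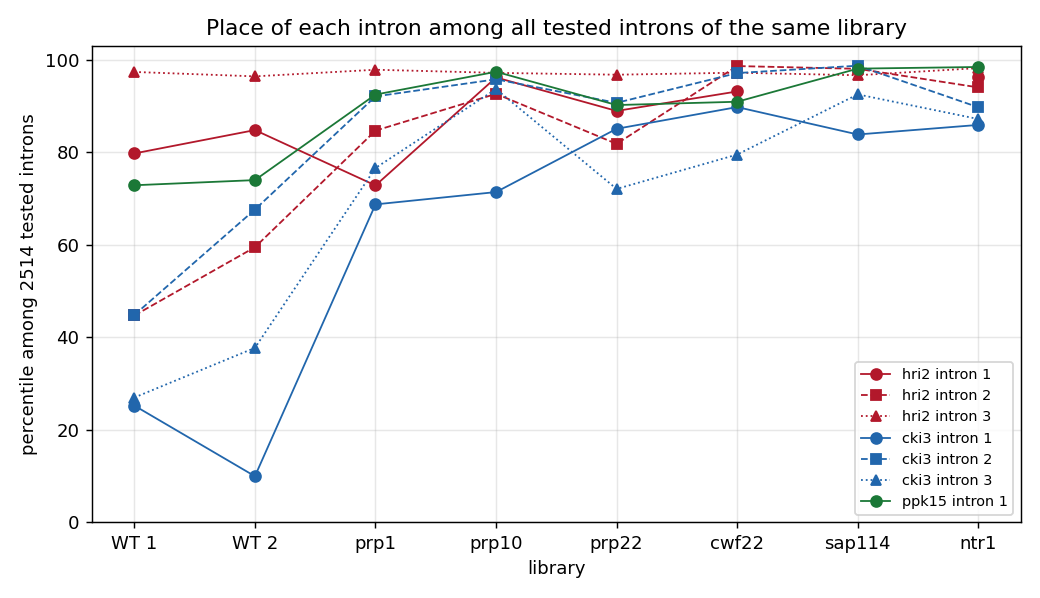
Percentile of each of the 7 introns among the 2514 tested introns, by unspliced share, in each library. hri2 intron 3 stays above 96 throughout, while cki3 intron 1 goes from 25.2 and 9.94 in WT to between 68.7 and 89.8 in the mutants.

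In the fit of the mutants as a class against WT (edgeR's quasi-likelihood test on spliced and unspliced counts, Benjamini-Hochberg adjustment at 0.05), 96.9% of the 2514 introns were called higher. The 6 tested introns of the 3 genes were among them, which the choice of the genes from this contrast had fixed, so nothing is read from it. The fitted log2 change in the odds of unspliced to spliced reads was 8.72, 7.77 and 7.90 for cki3 introns 1, 2 and 3, 7.75 and 4.13 for hri2 introns 2 and 3, and 7.12 for ppk15 intron 1. The median over all tested introns was 5.07. On this scale cki3 intron 1 leads the 3 genes, while in percentage points cki3 intron 2 does.

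The introns with the most similar values over the 8 libraries, among introns of other genes with at least 50 reads in each, were found by the root mean square difference in log2 odds. For hri2 intron 2 they were intron 3 of gnd1, phosphogluconate dehydrogenase (difference 0.59), intron 3 of cnt5 (0.74) and intron 3 of nog1, a GTPase of ribosome assembly (0.83). cki3 intron 2, which falls short of 50 reads by 1 read, was closer to hri2 intron 2 than any of these (0.53). For cki3 intron 1 they were intron 5 of cds1, a checkpoint kinase (0.40), intron 1 of mrpl8, a mitochondrial ribosomal protein (0.43), and intron 1 of zwf1, glucose-6-phosphate dehydrogenase (0.64). For cki3 intron 3 they were intron 4 of osh42 (0.55), intron 2 of uba1, the ubiquitin-activating enzyme (0.61), and intron 1 of its3, a phosphatidylinositol phosphate kinase (0.63). The ppk15 intron was nearest to nog1 intron 3 (0.48), opi10 intron 1 (0.56) and intron 1 of mdh1, malate dehydrogenase (0.68). Lengths were not alike, since the gnd1 intron has 817 nt and hri2 intron 2 has 49 nt.

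Total reads asked whether the 3 genes gave more or fewer reads in the mutants. Spliced plus unspliced reads were summed over each gene's annotated introns and scaled to library size with TMM (CPM). How many reads of 1 unspliced molecule the table counts, compared with 1 spliced molecule, is not given in the sources used here, so a total can move with retention itself. None of the 3 genes passed, where 23.5% of 1611 genes did in either direction.

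The total of hri2 was 479 and 484 CPM in WT replicates 1 and 2. The mutants, from low to high, were sap114 at 316, prp10 at 424, ntr1 at 439, prp22 at 449.9, prp1 at 530.1 and cwf22 at 563 CPM. The mutants lay on both sides of WT, 2 above and 4 below, and the lowest, sap114, lacks the reads of intron 1. The log2 change was −0.09 (standard error 0.19, edgeR adjusted p = 0.760). It was −0.003 without sap114 and −0.21 with intron 1 left out of the sum in every library. It was −0.25 with unspliced reads counted as 0.5 (edgeR adjusted p = 0.360).

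The total of cki3 was 339 and 288 CPM in WT. It was 363 in prp22, 378.97 in prp1, 396 in ntr1, 509 in sap114, 589 in prp10 and 614 in cwf22. All 6 mutants were above both WT libraries. The share of all tested genes whose totals separate in this way was not counted, so nothing is read from it. The log2 change of 0.60 (standard error 0.22) had an edgeR adjusted p of 0.0651 and did not pass. DESeq2 put its adjusted p at 0.0457. In edgeR the adjusted p was 0.0483 without prp22 and 0.0397 without prp1. With unspliced reads counted as 0.5 the change was 0.27 (edgeR adjusted p = 0.364).

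The total of ppk15 was 222.14 and 211 CPM in WT. It was 221.7 in ntr1, 238 in cwf22, 249 in prp10, 279 in prp22, 315 in sap114 and 319.9 in prp1. Of the 6 mutants 5 lay above both WT libraries, and ntr1 was level with WT replicate 1. How common such a pattern is among all tested genes was not counted. The log2 change was 0.32 (standard error 0.18, edgeR adjusted p = 0.194), and it was −0.01 when each unspliced read was counted as 0.5.

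Spliced reads of the same genes, on the same scale, were lower in each mutant than in either WT library. How many of all genes share this was not counted. By unspliced share, every mutant was above both WT libraries at 98.6% of tested introns, so the separation is not particular to these genes on that measure. In hri2 the WT libraries had 338 ± 4.51 CPM (SD, n = 2) and the mutants 44.2 ± 55.0 (SD, n = 6), from 4.26 in sap114 to 150.2 in prp1. The hri2 value of sap114 lacks intron 1, for which 0 reads are listed there. In cki3 spliced reads went from 302 ± 39.8 to 57.8 ± 45.3, with 15.3 in sap114 and 140.1 in prp1. In ppk15 they went from 192 ± 8.43 to 22.6 ± 25.0, with 2.39 in ntr1 and 67.5 in prp1. These values restate the shares and totals above and carry no test.

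**Figure D3:**
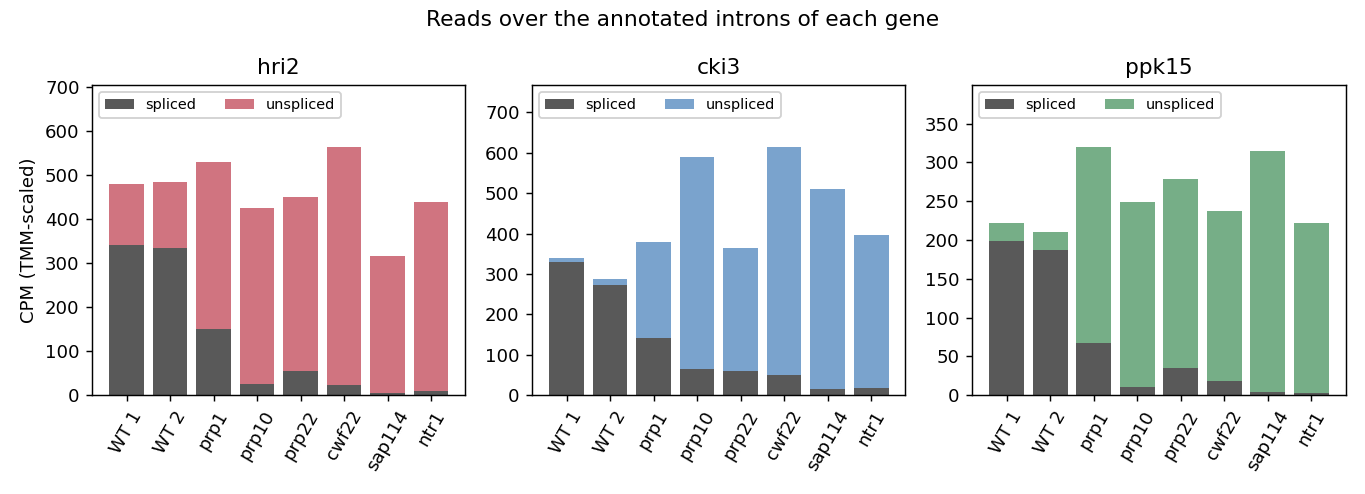
Spliced (grey) and unspliced (coloured) reads in CPM, scaled by TMM, over the annotated introns of each gene in each library, with bars starting at 0. The spliced part is largest in the WT libraries and next largest in prp1, and cki3 totals in the 6 mutants (363 to 614) are above those in WT (288 and 339). The change of the cki3 total did not pass the edgeR test. The hri2 bar of sap114 lacks intron 1, for which 0 reads are listed there.

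Use of other splice sites was rare in these genes. In the table hri2 spans 4 unannotated or alternative junctions (that at chrI:954925-954971 is on the opposite strand), cki3 1 and ppk15 0. Reads were given for 1 of them, a junction of hri2 at chrI:956273-956340 that keeps the 3′ splice site of intron 1 and uses a 5′ splice site further downstream. It had 2 reads in prp1, 1 in WT replicate 2 and 0 in the other 6 libraries. The junction of cki3 that would skip its second exon (chrI:2781551-2781746) had 0 reads in all 8 libraries.

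Genes that act with the 3 kinases, or belong to the same families, were drawn by symbol. Of the genes around eIF2, hri1, gcn20, tif213, tif221 and tif224 have no annotated intron in the table, and those of gcn2 and gcn1 were below 20 reads in at least 1 library. The 12 tested introns of the other eIF2 and eIF2B genes all rose in the edgeR test, as 96.9% of all introns did, with a median difference of 60.2 points against 54.4 over all tested introns. tif211, which encodes the alpha subunit that Hri2 phosphorylates, had at its intron 2 the lowest mutant share of the 12. Its intron 1 went from 1.14% ± 0.242 (SD, n = 2) to 42.5% ± 17.7 (SD, n = 6) and its intron 2 from 10.2% ± 0.388 to 32.3% ± 14.0 (edgeR adjusted p = 0.0266). In tif225, a subunit of the exchange factor eIF2B, intron 3 went from 2.67% ± 0.511 to 78.7% ± 17.6 and intron 2 from 7.67% ± 0.745 to 82.9% ± 11.1.

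Of the other casein kinase 1 genes, cki2 was below 20 reads at its 3 introns, and 4 introns of cki1, hhp1 and hhp2 were tested. All 4 rose, as did 96.9% of all tested introns, with a median difference of 71.4 points against 54.4 over all tested introns. hhp2 intron 1 went from 9.93% ± 4.29 (SD, n = 2) to 92.7% ± 9.43 (SD, n = 6) and hhp2 intron 2 from 5.42% ± 3.38 to 84.3% ± 16.6. cki1 intron 2 went from 25.0% ± 11.0 to 88.8% ± 7.56. hhp1 intron 1 resembled hri2 intron 3 in being retained in WT already (50.4% ± 0.561), and reached 91.9% ± 5.42. Of the DYRK and related kinases, pom1, ppk5 and lkh1 have no annotated intron in the table and prp4, a kinase of the spliceosome, was below 20 reads at its single intron.

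Among the other protein kinases 54 introns of 20 genes were tested and 54 rose, where 96.9% of all tested introns did, and their median difference was 67.4 points against 54.4 over all. The largest differences were at pck1 intron 3, in a protein kinase C gene (7.31% ± 3.76 to 91.2% ± 11.7), ppk27 intron 1 (4.97% ± 2.10 to 85.5% ± 9.30) and cdk9 intron 2, in a transcription elongation kinase gene (10.3% ± 0.835 to 90.8% ± 11.5). The smallest were at cdc2 intron 1 (59.2% ± 2.34 to 87.5% ± 5.86), in the gene of the cell cycle kinase, at cka1 intron 4, in a casein kinase 2 gene (1.84% ± 1.96 to 46.0% ± 20.8), and at ppk26 intron 9 (8.34% ± 6.65 to 56.0% ± 18.7). The 6 tested introns of hri2, cki3 and ppk15 had a median difference of 81.3 points, which follows in part from how they were chosen.

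**Figure D4:**
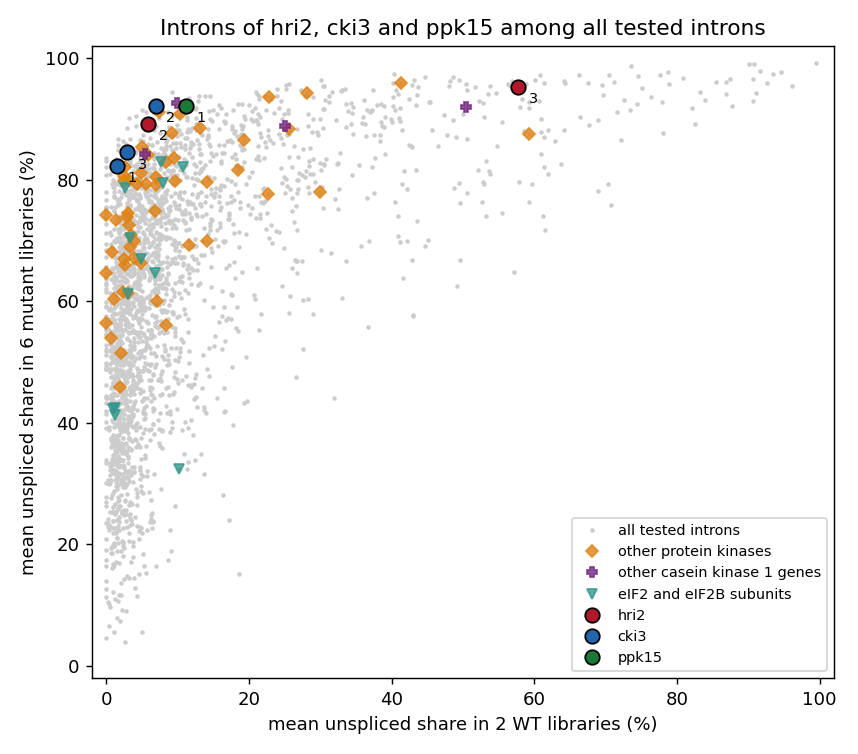
Mean unspliced share in the 6 mutant libraries against that in the 2 WT libraries for every tested intron, in percent. The introns of hri2, cki3 and ppk15 carry their intron numbers and lie between 82.3% and 95.3% on the mutant axis, and hri2 intron 3 stands apart from the other 5 on the WT axis at 57.7%.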

How the data were processed

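The table holds whole-number counts of spliced and unspliced reads per junction and library, deposited by the authors without normalization, per the file headers. STAR 2.5, bedtools 2.26 and build ASM294v2 are named in the submitters' processing notes. The rule by which reads were counted as unspliced is not given in the sources used here. Library preparation was directional and started from 1 µg of RNA, per the labels' protocols. Columns were mapped to samples by title. Gene names and intron numbers came from RefSeq's ASM294v3, where 5077 of 5144 annotated introns matched at both ends and 5070 of these run from GT to AG.

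Retention was fitted with edgeR 4.0.16 (R 4.3.3) on the counts of introns that reached 20 reads in each library, with a depth term for each library and a term for the odds of unspliced reads in WT and in the mutants. Gene totals were fitted with edgeR and TMM over genes with at least 20 reads in every library. Both fits used Benjamini-Hochberg adjustment over all introns or genes. They were also run on simulated counts where each change was equal in all mutants, unlike in these strains, so nothing is read from that run. Log odds used a pseudocount of 0.5. Alternatives used DESeq2 1.42.0 and limma 3.58.1. Python 3.11.15, pandas 2.3.3, scipy 1.17.1 and matplotlib 3.10.9 did the rest. Intron totals of the WT libraries differed beyond sampling noise (chi-square 5771 on 2513 degrees of freedom). The labels do not say whether the WT libraries came from separate cultures, so the spread between them may be technical. The 6 mutant libraries are 6 strains taken as 1 class, with no strain replicated. The p-values of both fits therefore measure only the spread between these libraries, which includes differences between mutant strains.

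The genes, the lists and the rules for naming were chosen with earlier results of these data known. All introns of the 3 genes were named. Beyond them the text names, for each of hri2 intron 2, cki3 introns 1 and 3 and the ppk15 intron, the 3 nearest introns of other genes, and introns of the kinase lists by family or by the 3 largest and 3 smallest differences. cki3 intron 2 was singled out after its values were seen.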

Additional observations from a re-analysis of the deposited data

Results flagged for a closer look

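The unspliced share of hri2 intron 1 in prp1, 53.8%, stood apart from the other 4 mutants with a value, since its gap to the next of them made up 0.748 of the whole range. The 5 libraries are different strains, not replicates of 1 strain. Of 10 sets of mutant values examined (7 introns and 3 gene totals) 1 was marked in this way. At cki3 intron 1 prp1 came close, with 0.606 against a cutoff of 0.625. Chance marks about 1 in 20 sets of like, independent values. The sets here share their libraries, and prp1 was the lowest mutant at 90.8% of all tested introns, so that rate does not apply to them.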

How the results depend on the processing

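No paired analysis was possible because each mutant strain has 1 library and the labels give replicate numbers to WT alone. The introns of the 3 genes called higher were fixed by the choice of the genes, and their count moved only with the number that could be tested. It was 6 of 6, ranged from 6 to 7 with each library left out (7 of 7 without sap114, where hri2 intron 1 has its 0), and was 5 of 5 at a minimum of 50 reads, 7 of 7 with no minimum and 6 of 6 at 10 reads, in DESeq2 and in limma with either pseudocount. It says nothing about stability. The count of genes whose total passed was 0, and 1 (cki3) in DESeq2. With each library left out it ranged from 0 to 1. The log2 change of the cki3 total was 0.59 in DESeq2, and ranged from 0.48 to 0.69 with each library left out. The change of ppk15 ranged from 0.27 to 0.38 and that of hri2 from −0.19 to −0.003 in the same way. With spliced reads alone, rescaled by their own TMM, the change was −1.10 for cki3 and −1.84 for ppk15, opposite in sign to the totals. For hri2 it was −1.74, against −0.09 for its total. These values follow from taking out the unspliced reads. Spliced reads enter the shares by which the genes were chosen, so no p-value is given for them. With unspliced reads counted as 0.5 it was −0.0085 for ppk15, 0.27 for cki3 and −0.25 for hri2. Without intron 1, an alternative chosen after the data were seen, the change of hri2 was −0.21 for the total (edgeR adjusted p = 0.391) and −1.95 for spliced reads alone. The differences of mean share stayed within 1 SD of the mutants under all 62 recalculations. Leaving out 1 mutant library cannot move the mean that far, so those recalculations say nothing about stability. The depth limits single-library shares to the intervals printed.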
